A study of Mus musculus with 5 samples.

Results

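The basic leucine zipper (bZIP) transcription factors of the AP-1, Bach and Maf kind, 10 genes in all, were followed in mature CD8 single-positive (SP) thymocytes of mice: Fos, Fosb, Fosl2, Jun, Junb, Jund, Batf, Bach1, Bach2 and Maf. They were chosen by gene symbol, and all 10 had a row among the 35976 genes of the count files. The cells were sorted by flow cytometry from the thymus, and bulk RNA-seq was made from 3 samples of Runx3 +/WRPW mice, which carry 1 copy of an allele named WRPW, and 2 samples of Runx3 +/+ mice, the wild type. Both genotypes retain at least 1 wild-type Runx3 allele, and no further allele or treatment is named. The sources used here state neither how the allele was made nor the age or sex of the mice. Nothing states that each sample is a different animal, so the p-values rest on a spread between samples that may be no more than technical.

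As background, AP-1 is a set of dimers that bind DNA through paired bZIP domains. Jun proteins pair with Fos proteins or with Batf, and the pair that forms helps decide whether target genes are activated or held down. Bach proteins are repressors that pair with small Maf proteins and occupy sites much like those of AP-1, and c-Maf, the product of Maf, is a large Maf protein that activates cytokine genes in T cells. In T cells, Fos and Jun genes are switched on by receptor signals through kinases of the MAP kinase pathways, while Bach2 keeps naive T cells from turning into effector cells. Runx3 is the Runt-domain factor of the CD8 lineage, and WRPW is known as the motif by which Hes repressors bind Groucho/TLE corepressors.

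Total counts were 15715242 to 43758550 in the Runx3 +/WRPW libraries and 21635675 and 25526389 in the Runx3 +/+ libraries, and a floor of 3 counts stood for 0.0686 to 0.187 CPM, the count scaled to library size. Runx3 itself was at 394, 341 and 422 CPM in Runx3 +/WRPW and at 273 and 357 CPM in Runx3 +/+, which does not show the allele, because counts per gene do not tell alleles apart. All 8 markers of mature CD8 T cells were present and summed to 8014 to 9019 CPM in Runx3 +/WRPW and 8971 to 9056 CPM in Runx3 +/+. Of these, Cd8a and Cd8b1 overlapped between genotypes. Cd3d, Cd3e, Cd3g, Lck and Zap70 lay lower in Runx3 +/WRPW without overlap, and H2-K1 lay higher. Only Cd3d passed (mean 393 CPM in Runx3 +/WRPW against 484 in Runx3 +/+, edgeR adjusted p = 0.0390). Runx3 +/WRPW library 2 stood apart, with a count at 27414 genes against 17237 to 18967 in the other 4 libraries. In that library the summed markers of thymic epithelium (13.8 CPM, Krt8 at 0), dendritic cells (9.22 CPM, Itgax at 0), myeloid cells (5.73 CPM, S100a8 at 0) and gamma-delta or innate-like T cells (12.5 CPM, Blk at 0 and 5 of 6 genes with a row) were the highest of all libraries. In Runx3 +/+ the sums were 3.04 to 5.12 CPM for thymic epithelium (Foxn1 at 0), 1.80 to 2.80 for dendritic cells, 0.919 to 1.40 for myeloid cells and 2.90 to 4.28 for gamma-delta or innate-like T cells. Among the summed levels that did not overlap between genotypes were those of 3 natural killer markers. They were 74.3 to 149.8 CPM in Runx3 +/WRPW and 10.3 to 12.5 CPM in Runx3 +/+. Most of this was Eomes, which CD8 T cells also express, and Ncr1 was at 0 in Runx3 +/+. The sums of 5 immature thymocyte markers did not overlap either, at 12.8 to 15.7 CPM in Runx3 +/WRPW and 27.0 to 29.9 CPM in Runx3 +/+. Of these, Dntt (mean 3.32 CPM in Runx3 +/WRPW against 12.2 in Runx3 +/+) and Cd24a (10.7 against 15.9) were lower. Rag1 was not (0.559 against 0.380), Rag2 was at most 0.0799 CPM, and Ptcra was at 0 in Runx3 +/+. For single genes, 48.5% of all those tested did not overlap. The 3 CD4-lineage markers summed to 0.690 to 0.891 CPM in Runx3 +/WRPW and 1.17 to 6.35 CPM in Runx3 +/+, again without overlap. Cd4 gave 5.36 CPM of the sum in Runx3 +/+ library 2 and 0.467 CPM in library 1, and it did not pass (edgeR adjusted p = 0.0743). Zbtb7b was at no more than 0.374 CPM in any library, and Cd40lg overlapped between genotypes. Regulatory T cell markers are given with Batf. The erythroid markers stayed under 1 CPM in every library, with Hba-a1 and Hba-a2 at 0. In Runx3 +/WRPW library 2, Zbtb16 gave 9.84 of the 12.5 CPM for gamma-delta or innate-like T cells, and Flt3 6.04 of the 9.22 for dendritic cells. Epcam (7.66) and Foxn1 (4.67) gave most of the thymic epithelium sum. H2-Aa, a dendritic marker, was lowest there among the Runx3 +/WRPW libraries, at 0.685 CPM. That library also had a count at 4451 of 9308 genes with no count in the other 4. Whether these sums reflect other cell types, and their part in the results, was not tested. The column header of Runx3 +/WRPW library 2 holds a general aligner name and that of Runx3 +/+ library 2 bears another number, so both were assigned by the sample records, and the tests below were also run without each of them.

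The comparison asked which of these factors differ in transcript level when 1 Runx3 allele is WRPW. Junb rose 1.76-fold, while Jund fell 1.85-fold, Fosl2 fell 6.26-fold and Bach2 fell 1.51-fold. Fos, Fosb, Jun, Batf, Bach1 and Maf did not pass the test. The 4 changes among 10 members, 1 higher and 3 lower, stand against 13.6% of all 13666 genes tested, 6.24% higher and 7.33% lower. The median log2 fold change of the 10 members was 0.08, against 0.02 over all genes tested. All 10 passed the filter on low counts. DESeq2 and limma-voom, run on all 5 libraries, called the same 4. Without Runx3 +/+ library 2, 0 members passed in edgeR, where 6 had an unadjusted p under 0.05, and without Runx3 +/+ library 1, 2 passed (Fosl2 and Jund). The same 4 passed without Runx3 +/WRPW library 2. The low-count filter was redone in each fit with a library left out. It kept 18369 genes without Runx3 +/+ library 1 and 18169 without library 2, against 13666 with all 5 libraries. Adjusted p-values of these fits are therefore over other numbers of genes, and calls lost there do not reflect the missing library alone.

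**Figure D1:**
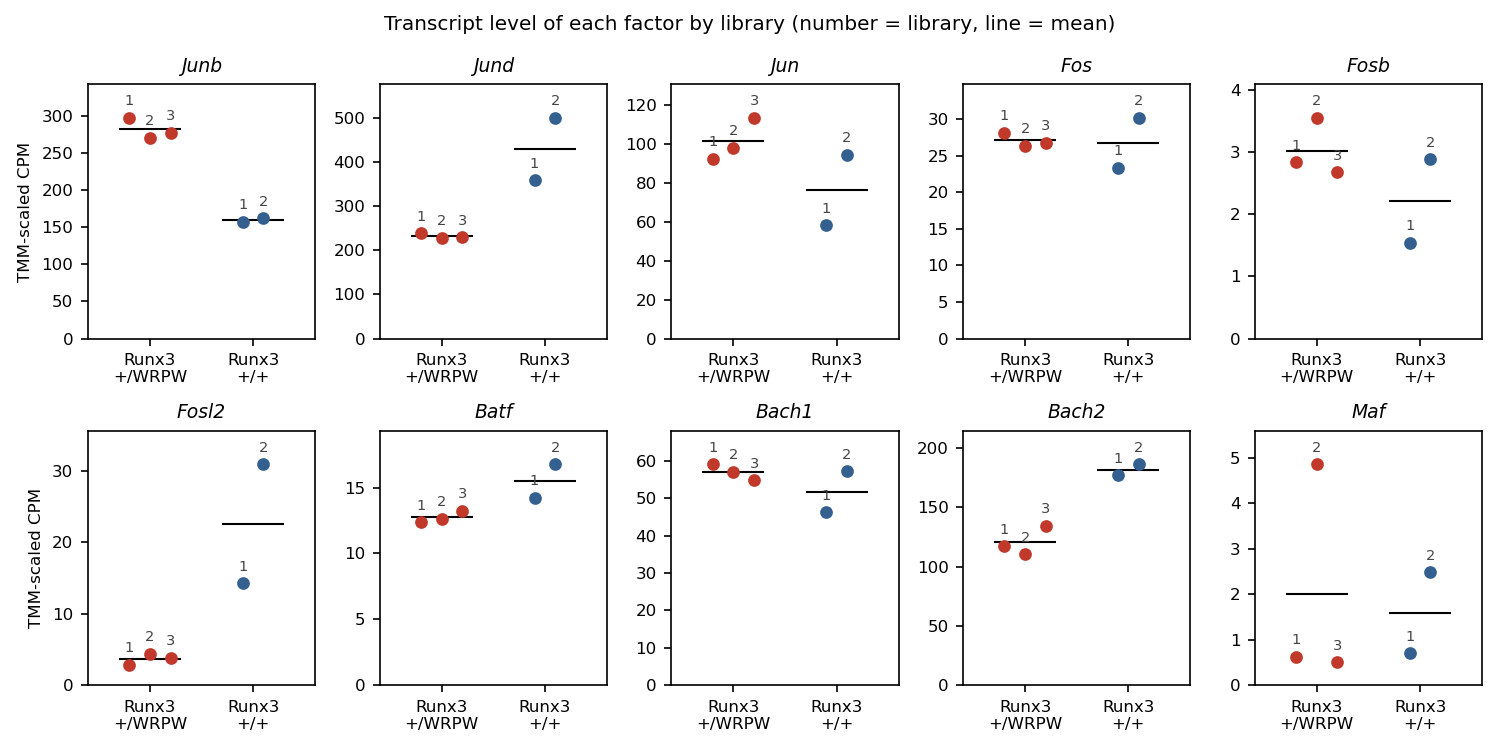
Transcript level of each of the 10 factors in TMM-scaled CPM (y axis from 0, scale set per gene) in the 3 Runx3 +/WRPW libraries (left, red) and the 2 Runx3 +/+ libraries (right, blue), each point 1 library with its number and each line a mean. The genotypes do not overlap for Junb, Jund, Fosl2, Batf and Bach2, and Runx3 +/WRPW library 2 stands alone for Maf at 4.86 CPM.

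Sequences are shown for 3 members: Junb, which rose, Fosl2, which fell most, and Batf, which did not pass but was the single member whose window held a Runx core. They are the 250 bases before the start site in RefSeq (GRCm38.p6, the assembly that mm10 names), 5′ to 3′ on the strand of the gene, with capitals for matches to the motifs searched.
Junb, minus strand of chr8:84978749-84978998: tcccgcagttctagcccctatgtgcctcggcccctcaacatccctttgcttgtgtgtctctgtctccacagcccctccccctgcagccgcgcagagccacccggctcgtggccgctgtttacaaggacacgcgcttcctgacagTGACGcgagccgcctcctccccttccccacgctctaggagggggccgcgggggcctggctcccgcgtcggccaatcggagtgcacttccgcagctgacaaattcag
Fosl2, plus strand of chr5:32136222-32136471: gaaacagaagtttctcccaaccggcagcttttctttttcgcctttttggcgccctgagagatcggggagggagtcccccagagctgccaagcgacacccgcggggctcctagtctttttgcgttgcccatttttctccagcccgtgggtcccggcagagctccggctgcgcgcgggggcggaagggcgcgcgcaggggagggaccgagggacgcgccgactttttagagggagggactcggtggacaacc
Batf, plus strand of chr12:85686470-85686719: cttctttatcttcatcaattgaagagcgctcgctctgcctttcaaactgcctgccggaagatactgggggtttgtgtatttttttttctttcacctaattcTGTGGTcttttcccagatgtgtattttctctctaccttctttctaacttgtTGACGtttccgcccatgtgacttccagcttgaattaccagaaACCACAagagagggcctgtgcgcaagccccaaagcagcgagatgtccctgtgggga

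Windows of the same length were searched on both strands for 9 members; Maf was not analysed here. The Runx core TGTGGT was found in 1 of the 9, Batf, on the plus strand at -149 to -144 and on the minus strand at -56 to -51, where 14.0% of 32851 gene windows hold it. The related core TGCGGT (5.10% of windows) and the AP-1 site TGANTCA (6.75%) were in 0 of the 9, as were the full cAMP response element TGACGTCA (1.55%) and the CArG box bound by serum response factor (1.47%). TGACG, which is also the first part of the full cAMP response element, was in 4 of the 9, Fos, Fosb, Junb and Batf, against 17.8% of windows. The Jun window held TGACATCA at -45 to -38 (2.93% of windows), and the Bach1 window held the Maf half-site TGCTGA on its minus strand (16.1%). These matches describe letters in these windows only. The RefSeq start lay 671 bases from the GENCODE M21 gene start for Fosl2, 1210 bases for Jund and 178631 bases for Bach2, a gene with several starts, and at most 51 bases for the other 6 genes.

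Among the Jun genes, which encode the AP-1 subunits that can pair with themselves or with any Fos protein, Junb and Jund changed in opposite directions. Junb (chromosome 8, 84976909 to 84978748, mm10) encodes JunB, a subunit of weaker activity than c-Jun that can also hold AP-1 targets down. It was at 298, 271 and 277 CPM in Runx3 +/WRPW libraries 1, 2 and 3 and at 157 and 162 CPM in the Runx3 +/+ libraries. Every Runx3 +/WRPW library lay above both Runx3 +/+ libraries, and the libraries of a genotype lay close together. The means were 282 ± 14.1 CPM (SD, n = 3) in Runx3 +/WRPW and 160.0 ± 3.53 CPM (SD, n = 2) in Runx3 +/+, a log2 fold change of 0.82 ± 0.07 (SE) with an adjusted p = 0.00222 in edgeR's quasi-likelihood test. The adjusted p ranged from 3.70e-24 (DESeq2) to 0.0582 over the alternatives: the call was lost without Runx3 +/+ library 1 (adjusted p = 0.0520) or library 2 (adjusted p = 0.0582), at log2 fold changes of 0.76 and 0.83.

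Jund (chromosome 8, 70697739 to 70700616) encodes JunD, the Jun protein that resting cells make most steadily. It was at 238, 229 and 229 CPM in Runx3 +/WRPW and at 359 and 501 CPM in Runx3 +/+. The 3 Runx3 +/WRPW libraries differed little from each other and lay below both Runx3 +/+ libraries, which differed 1.40-fold. The means were 232 ± 5.42 CPM (SD, n = 3) in Runx3 +/WRPW and 430.2 ± 101 CPM (SD, n = 2) in Runx3 +/+, and the log2 fold change was -0.89 ± 0.14 (SE; edgeR adjusted p = 0.0121). Without Runx3 +/+ library 2 it was -0.64 and the call was lost (edgeR adjusted p = 0.0567, with a range of 1.73e-08 to 0.0567 over the alternatives). GENCODE places the antisense gene Gm11175 over 877 of the 1668 exon bases of Jund, and whether the counting used strand is not given in the sources used here. Junb shares 173 exon bases in GENCODE with Prdx2 on the opposite strand, which was at 34.3, 32.9 and 29.9 CPM in Runx3 +/WRPW and 31.8 and 25.7 CPM in Runx3 +/+. Jun shares 232 exon bases with Junos, and Maf 440 with Gm15655, also on the opposite strand. Junos was at 0.960, 7.66 and 0.966 CPM in Runx3 +/WRPW and 0.420 and 0.400 CPM in Runx3 +/+. Gm11175 and Gm15655 had no row under these names in the counts, so no level can be given for them.

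Jun (chromosome 4, 95049036 to 95052222) encodes c-Jun, the strongest activator of the Jun proteins. It was at 92.2, 97.9 and 113 CPM in Runx3 +/WRPW and at 58.1 and 94.2 CPM in Runx3 +/+. Runx3 +/+ library 1 was low, library 2 lay within the range of the Runx3 +/WRPW libraries, and the log2 fold change of 0.41 ± 0.21 (SE) did not pass (edgeR adjusted p = 0.250).

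Per length, the make-up of the Jun family differed between the genotypes. On a scale of CPM per kilobase of exon, Junb was 43.0%, 41.2% and 41.0% of the Jun family's sum in Runx3 +/WRPW and 22.7% and 17.6% in Runx3 +/+. Jund was 47.5%, 48.0% and 46.9% of that sum in Runx3 +/WRPW and 71.3% and 75.0% in Runx3 +/+. The summed level of the family was 301, 285 and 294 CPM per kilobase in Runx3 +/WRPW and 302 and 401 in Runx3 +/+. The Runx3 +/WRPW sums lay just under that of Runx3 +/+ library 1 and well under that of library 2. The ratio of Junb to Jund per length averaged 0.880 ± 0.0238 (SD, n = 3) in Runx3 +/WRPW and 0.276 ± 0.0587 (SD, n = 2) in Runx3 +/+. With RefSeq gene spans as lengths it was 1.90 in Runx3 +/WRPW and 0.596 in Runx3 +/+. Which of the pair is the more abundant in Runx3 +/WRPW thus depends on the annotated length. The quotient of the genotype means is 3.18 with either, because the lengths cancel in it, so it is no check on them. These shares follow from the values above and were not tested.

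Of the Fos genes, whose products need a Jun partner, Fosl2 changed and Fos and Fosb did not pass. Fosl2 (chromosome 5, 32136472 to 32157840) encodes Fra-2, a Fos protein without the strong activation domain of c-Fos. It was at 2.83, 4.36 and 3.82 CPM in Runx3 +/WRPW (124, 70 and 83 counts) and at 14.2 and 30.9 CPM in Runx3 +/+ (305 and 773 counts). All Runx3 +/WRPW libraries lay below both Runx3 +/+ libraries, which differed 2.17-fold between them. The means were 3.67 ± 0.773 CPM (SD, n = 3) in Runx3 +/WRPW and 22.6 ± 11.8 CPM (SD, n = 2) in Runx3 +/+, with a log2 fold change of -2.65 ± 0.35 (SE; edgeR adjusted p = 0.00805). By size it ranked at 313 of the 13666 genes tested. Without Runx3 +/+ library 2 the log2 fold change was -1.97 and the call was lost (adjusted p = 0.0672, with a range of 6.25e-10 to 0.0672 over the alternatives).

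Fos (chromosome 12, 85473890 to 85477274) encodes c-Fos, an immediate-early protein of receptor signals. It was at 28.1, 26.3 and 26.8 CPM in Runx3 +/WRPW and at 23.3 and 30.2 CPM in Runx3 +/+. The Runx3 +/WRPW libraries lay between the pair of Runx3 +/+ libraries, with a log2 fold change of 0.02 ± 0.13 (SE; edgeR adjusted p = 0.944). Fosb (chromosome 7, 19302696 to 19310118), a close relative of Fos that is also induced by signals, was low, at 2.83, 3.55 and 2.67 CPM in Runx3 +/WRPW and 1.54 and 2.88 CPM in Runx3 +/+. Its genotypes overlapped (log2 fold change 0.44 ± 0.37, SE; edgeR adjusted p = 0.488). Per length, Fosl2 made up 2.31%, 3.69% and 3.23% of the Fos family in Runx3 +/WRPW and 12.7% and 19.4% in Runx3 +/+, while Fos held 91.7% to 94.1% in Runx3 +/WRPW and 77.8% to 85.2% in Runx3 +/+.

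**Figure D2:**
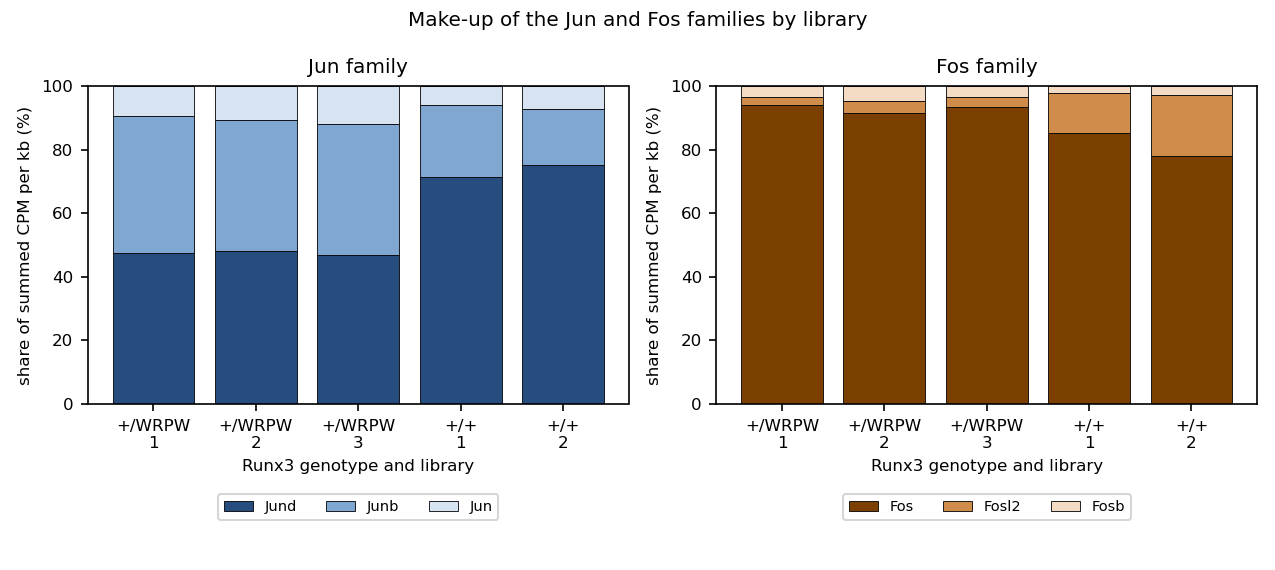
Share of each gene in the summed CPM per kilobase of exon (percent, y axis from 0) of the Jun family (left) and the Fos family (right) in each library, with Runx3 +/WRPW libraries 1 to 3 left of Runx3 +/+ libraries 1 and 2. Junb takes 41.0% to 43.0% of the Jun family in Runx3 +/WRPW and 17.6% to 22.7% in Runx3 +/+, and Fosl2 takes 2.31% to 3.69% of the Fos family in Runx3 +/WRPW and 12.7% to 19.4% in Runx3 +/+.

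Batf (chromosome 12, 85686720 to 85709087) encodes a small bZIP protein that lacks an activation domain and works with Jun proteins and Irf4. It was at 12.4, 12.6 and 13.2 CPM in Runx3 +/WRPW and at 14.2 and 16.8 CPM in Runx3 +/+. The genotypes did not overlap, yet the difference was small, with a log2 fold change of -0.28 ± 0.12 (SE), and did not pass (edgeR adjusted p = 0.168). Genotypes that did not overlap were seen for 5 of the 10 members, 1 above and 4 below the wild type, and for 48.5% of all genes tested, 24.7% above and 23.8% below. Summed markers of regulatory T cells, which also express Batf, were 5.61 to 9.21 CPM in Runx3 +/WRPW and 13.1 to 22.2 CPM in Runx3 +/+, over 3 of 3 listed markers. Their members went different ways: Foxp3 fell 9.29-fold (edgeR adjusted p = 0.0123) and Ctla4 fell 4.98-fold (adjusted p = 0.0156), while Il2ra was at 6.45, 4.61 and 4.09 CPM in Runx3 +/WRPW and 3.78 and 3.96 CPM in Runx3 +/+ and did not pass (adjusted p = 0.377). Their part in the values of Batf and the other members was not tested. In bulk samples, fewer cells of a type and less RNA per cell cannot be told apart.

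Of the Bach repressors, Bach2 fell and Bach1 did not pass. Bach2 (chromosome 4, 32238413 to 32586109) was at 117, 111 and 134 CPM in Runx3 +/WRPW and at 177 and 187 CPM in Runx3 +/+. Each Runx3 +/WRPW library lay below both Runx3 +/+ libraries, with library 3 the nearest. The means were 121 ± 12.3 CPM (SD, n = 3) in Runx3 +/WRPW and 182 ± 6.74 CPM (SD, n = 2) in Runx3 +/+, and the log2 fold change was -0.59 ± 0.09 (SE; edgeR adjusted p = 0.0130). It no longer passed when library 1 of Runx3 +/WRPW was left out (edgeR adjusted p = 0.0551), nor without library 1 (0.117) or library 2 (0.188) of Runx3 +/+. Over the alternatives the adjusted p ran from 1.86e-06 to 0.188 and the log2 fold change stayed between -0.67 and -0.54. Bach2 made up 55.2%, 54.6% and 60.3% of the Bach pair per length in Runx3 +/WRPW and 70.4% and 66.9% in Runx3 +/+. Bach2os, an antisense gene that overlaps Bach2, was at no more than 0.560 CPM in any library. Bach1 (chromosome 16, 87698954 to 87733346), a heme-regulated repressor of antioxidant genes, was at 59.2, 57.2 and 54.9 CPM in Runx3 +/WRPW and at 46.3 and 57.3 CPM in Runx3 +/+. These ranges overlapped, with a log2 fold change of 0.14 ± 0.10 (SE; edgeR adjusted p = 0.421).

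Maf (chromosome 8, 115703253 to 115706894) was low in every library. It had 27, 78 and 11 counts (0.617, 4.86 and 0.506 CPM) in Runx3 +/WRPW and 15 and 62 counts (0.701 and 2.48 CPM) in Runx3 +/+. Library 2 was the high one of each genotype, and the genotypes overlapped. The log2 fold change of 0.28 ± 1.12 (SE; edgeR adjusted p = 0.899) became -1.49 without Runx3 +/WRPW library 2. Per length Maf was at 0.589 CPM per kilobase in that library. There, of 9308 genes with no count in any of the other 4 libraries, 4451 had a count, with a 95th percentile of 0.820 CPM per kilobase over all 9308.

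**Figure D3:**
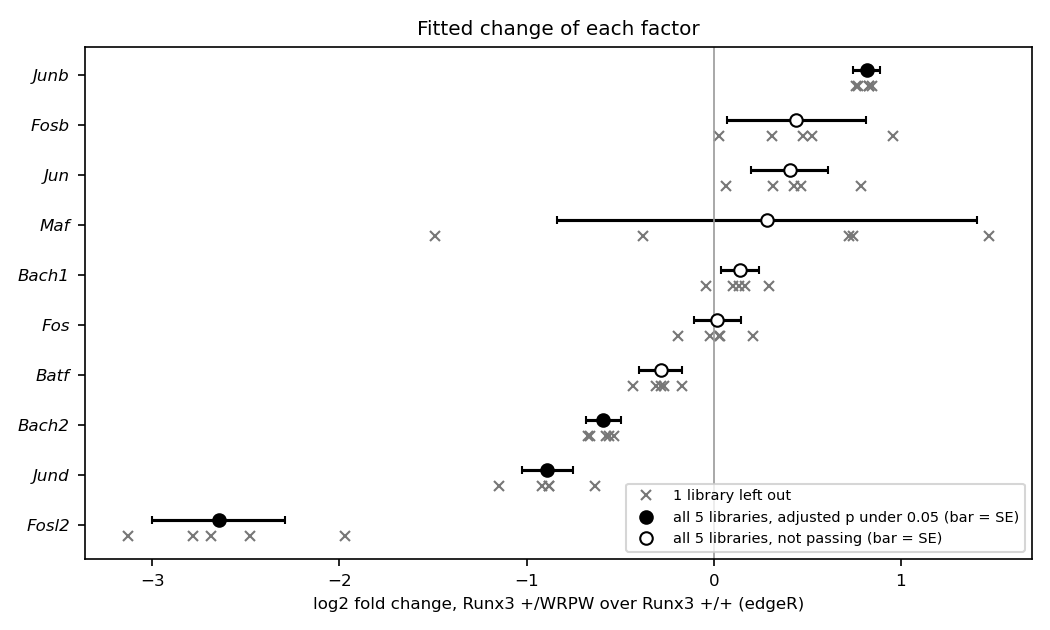
Fitted log2 fold change of each factor, Runx3 +/WRPW over Runx3 +/+ (x axis), with all 5 libraries (circles, bars show the SE, filled where the edgeR adjusted p is under 0.05) and with 1 library left out (crosses). Junb, Jund, Bach2 and Fosl2 stay on their side of 0 in each fit that left out 1 library, and Maf ranges from -1.49 to 1.47.

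With GENCODE exon unions as lengths, the order of the factors by level per length was nearly the same in both genotypes. In Runx3 +/WRPW, Jund (139 ± 3.25 CPM per kilobase, SD, n = 3) and Junb (123 ± 6.14) came first, then Jun (31.7), Bach2 (12.1), Fos (11.5), Bach1 (9.24), Batf (9.07), Fosb (0.483), Fosl2 (0.379) and Maf (0.242). In Runx3 +/+, Jund (258 ± 60.4 CPM per kilobase, SD, n = 2) was followed by Junb (69.5 ± 1.53), Jun (23.9), Bach2 (18.3), Fos (11.4), Batf (11.0), Bach1 (8.38), Fosl2 (2.33), Fosb (0.354) and Maf (0.193). Neighbours whose libraries overlapped were Bach2 and Fos, Bach1 and Batf, Fosb and Fosl2, and Fosl2 and Maf in Runx3 +/WRPW. In Runx3 +/+ they were Jun and Bach2, Fos and Batf, and Fosb and Maf. The other neighbours did not overlap. This order depends on the annotated lengths. With RefSeq gene spans, Junb stood above Jund in Runx3 +/WRPW (mean ratio 1.90) and below it in Runx3 +/+ (0.596). Spans were tried for the Jun genes alone, so the places of the other factors, Maf among them, rest on the GENCODE lengths.

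The members also differed between the wild-type libraries. All 10 were higher in Runx3 +/+ library 2 than in library 1, as were 50.7% of all genes tested, by 1.03-fold for Junb and 1.05-fold for Bach2 and by 1.62-fold for Jun, 1.87-fold for Fosb and 2.17-fold for Fosl2. The spread among Runx3 +/WRPW libraries was 1.04-fold for Jund, 1.07-fold for Fos and 1.54-fold for Fosl2 from lowest to highest. Cell sorting can also induce immediate-early and handling-response genes, of which 19 were listed and 18 tested. The summed level of all 19 was 2026, 1955 and 2114 CPM in Runx3 +/WRPW and 2023 and 2453 CPM in Runx3 +/+. It was again highest in Runx3 +/+ library 2. The part of sorting in the values of the members was not tested.

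The genes whose centred log2 CPM over the 5 libraries lay closest to that of Fosl2 were Ube2c, a ubiquitin-conjugating enzyme of mitosis (root mean square difference 0.181), Pbk, a mitotic kinase (0.213), and Gtf2ird1, which encodes a transcription factor (0.231). Ube2c was at 1.21, 2.18 and 1.61 CPM in Runx3 +/WRPW and at 8.64 and 14.1 CPM in Runx3 +/+. For Jund, the member with the highest mean level in CPM, they were Qprt, an enzyme of NAD synthesis (0.0413), Pdlim1, a PDZ and LIM domain protein (0.0465), and Sla2, an adaptor that dampens T cell receptor signals (0.0533). This is a description over 5 libraries, with no test.

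Other bZIP factors are given next, beside the 13.6% of all genes tested that passed. Of 8 AP-1 relatives, 3 were tested and 0 passed in edgeR, DESeq2 or limma-voom, with 0 at an unadjusted p under 0.05: Atf2 had a log2 fold change of -0.15 ± 0.07 (SE) and Atf7 of 0.15 ± 0.07. Of 10 cap'n'collar and other Maf factors, the partners and rivals of Bach proteins, 7 were tested and 0 passed in any of these tools, again with 0 at an unadjusted p under 0.05, with Nfe2l1 at a log2 fold change of 0.13 ± 0.09 and Maff at -0.43 ± 0.50. Of 17 tested genes for further bZIP factors, 2 rose, the circadian PAR-domain factors Tef (0.47 ± 0.08, edgeR adjusted p = 0.0165) and Dbp (0.56 ± 0.10, adjusted p = 0.0206), and 0 fell. DESeq2 called 4 of the 17 (these and Atf6 and Cebpb) and limma-voom 3 (these and Atf6). Tef and Dbp both passed without Runx3 +/WRPW library 2 and Tef alone without library 3, while 0 of this list passed in edgeR without Runx3 +/WRPW library 1, Runx3 +/+ library 1 or Runx3 +/+ library 2, with 3 or 4 genes at an unadjusted p under 0.05 in each case. The medians of these lists were 0.08, 0.06 and 0.04, against 0.02 over all genes.

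Of 25 tested kinases, Ras proteins and serum response factors upstream of Fos and Jun, 0 rose and 1 fell, Rasgrp1, the exchange factor that links the T cell receptor to Ras, with a log2 fold change of -0.30 ± 0.07 (SE; edgeR adjusted p = 0.0407). The median of that list was 0.02, and 11 of the 25 had an unadjusted p under 0.05 in edgeR, in both directions. DESeq2 called 3 of the list (Rasgrp1, Nras and Map2k1) and limma-voom 2 (Rasgrp1 and Nras). Among 6 genes of Jun and JunB turnover, 1 rose, Ndfip1, an adaptor of the ubiquitin ligase Itch that targets JunB (0.29 ± 0.07, adjusted p = 0.0424), and 0 fell, with a median of 0.09. Both calls were lost in edgeR with any 1 library left out.

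Of 18 tested immediate-early and handling-response genes, 1 rose and 5 fell in edgeR, with a median of 0.13. DESeq2 called 9 of the 18, adding Egr3 (log2 fold change -0.56 in edgeR), Ier5 (0.19) and Myc (0.28), and limma-voom called the same 6 as edgeR. Klf6, a zinc-finger factor, was at 153, 144 and 147 CPM in Runx3 +/WRPW and 72.3 and 67.1 CPM in Runx3 +/+ (log2 fold change 1.09 ± 0.06, SE; edgeR adjusted p = 0.000956). Log2 fold changes were -1.33 ± 0.16 for Nr4a1, an orphan nuclear receptor gene, -2.02 ± 0.29 for Socs3, a brake on cytokine signals, and -0.97 ± 0.14 for Egr1, a zinc-finger factor of receptor signals. The numbers were 1 higher and 5 lower without Runx3 +/WRPW library 2, 1 and 2 without Runx3 +/+ library 1, and 1 and 1 without Runx3 +/+ library 2. Klf6 and Nr4a1 passed in all 5 of the fits with a library left out, while Socs3 and Egr1 did not pass without Runx3 +/+ library 1 or library 2. Of 13 tested activation genes that AP-1 and NFAT can drive, 0 rose and 2 fell: Tnfrsf9, the gene of 4-1BB (-0.96 ± 0.11, edgeR adjusted p = 0.00483), and Cd69, an early activation marker (-0.55 ± 0.14, adjusted p = 0.0495). Cd69 passed in 1 of the 5 fits with a library left out. Without Runx3 +/+ library 1 or library 2, 0 of the 13 passed in edgeR, where 4 and 2 had an unadjusted p under 0.05, and without Runx3 +/WRPW library 2, 1 was higher and 1 lower. Their median was -0.27. DESeq2 called 3 of the 13, Tnfrsf9, Cd69 and Cd44, and limma-voom called 2, Tnfrsf9 and Cd69. Cd44 had a positive log2 fold change of 1.45 in edgeR (adjusted p = 0.0616). It passed in edgeR without Runx3 +/WRPW library 2 or library 3. Cd69 was not called with upper-quartile factors or with no low-count filter.

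Of 6 genes for partners of Batf and AP-1, 2 fell and 0 rose, with a median of -0.14. Irf4, which binds DNA together with Batf and Jun proteins, was at 9.92, 9.28 and 10.2 CPM in Runx3 +/WRPW and 22.3 and 26.4 CPM in Runx3 +/+ (log2 fold change -1.31 ± 0.12, SE; edgeR adjusted p = 0.00247). Nfatc3, an NFAT factor that can bind with AP-1, had a log2 fold change of -0.34 ± 0.08 (adjusted p = 0.0462), a call that was lost with any 1 library left out, while that of Irf4 was kept. Among 7 tested genes that Bach2 is known to hold down in T cells, 1 rose, Ahr, a ligand-gated bHLH factor (0.99 ± 0.21, adjusted p = 0.0331), and 1 fell, Ccr4, a chemokine receptor gene (-1.80 ± 0.40, adjusted p = 0.0363), with 5 not passing and a median of 0.10. Without Runx3 +/WRPW library 2 only Ccr4 of these 7 passed, while neither did without Runx3 +/WRPW library 1 or 3 or Runx3 +/+ library 2. Without Runx3 +/+ library 1, Ahr passed and Ccr4 did not.

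Among 10 tested targets of Bach1 and Nrf2, 1 rose, Blvrb, a biliverdin reductase (1.10 ± 0.19, SE, on the log2 scale; edgeR adjusted p = 0.0175), and 1 fell, Gclm, the regulatory subunit of glutathione synthesis (-0.71 ± 0.13, adjusted p = 0.0205), with a median of 0.07. Without Runx3 +/WRPW library 2, 2 were higher and 1 lower, while neither Blvrb nor Gclm passed with any other library left out. Of 9 genes linked to c-Maf in T cells, 3 were tested and 1 rose, Cxcr5, the receptor that guides lymphocytes to follicles, at 18.5, 28.3 and 12.3 CPM in Runx3 +/WRPW and 0.934 and 0.999 CPM in Runx3 +/+ (log2 fold change 4.33 ± 0.44, adjusted p = 0.00348). It no longer passed without Runx3 +/+ library 1 or library 2. The median of those 3 was -1.14. The remaining 6, among them Il4, Il10, Il21 and Il22, were below the count filter.

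**Figure D4:**
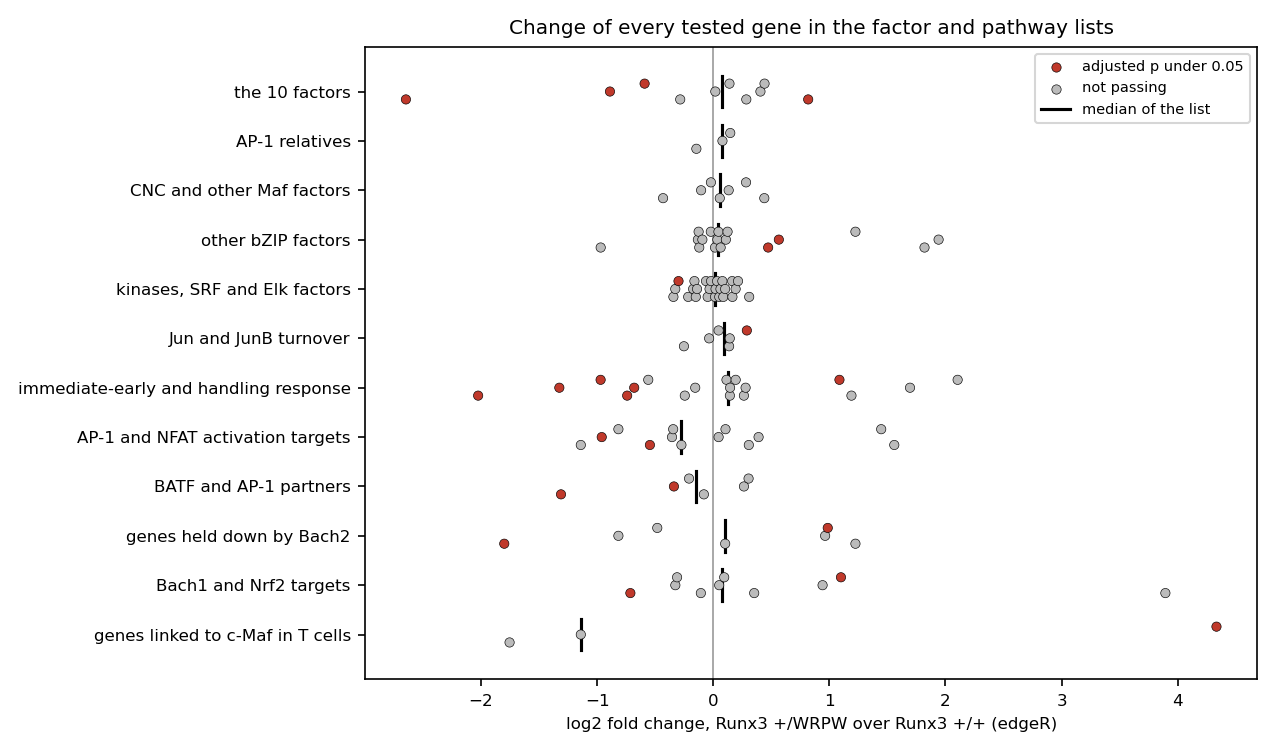
Log2 fold change, Runx3 +/WRPW over Runx3 +/+ (x axis), of every tested gene of the 10 factors and of 11 pathway lists (rows), each point 1 gene, red where the edgeR adjusted p is under 0.05, with a bar at the median of the list. The 10 factors run from -2.65 (Fosl2) to 0.82 (Junb), and the 25 kinases, Ras proteins and serum response factors lie between -0.34 (Mapk8) and 0.31 (Map2k6).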

How the data were processed

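Each sample has 1 deposited file of raw counts, whole reads summed by gene symbol, to which no scaling was applied. The submitters' processing notes name cutadapt 4.0, HISAT2 2.2.1, featureCounts 2.0.8, edgeR 3.36.0 and mm10. Annotation, strandedness and the handling of multi-mapped reads: not given in the sources used here. Per the labels' protocols, RNA was column-extracted and NEBNext libraries were made from a small amount.

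All genes entered 1 quasi-likelihood fit on genotype (glmQLFit, glmQLFTest; edgeR 4.0.16 under R 4.3.3), scaled by TMM and filtered by filterByExpr at its minimum count of 10; the threshold was an adjusted p (Benjamini-Hochberg, over 13666 genes) under 0.05. Standard errors were taken as |log2 fold change| over the root of F. Levels are CPM after TMM scaling. Levels per length used GENCODE M21 exon unions; positions and promoter windows came from RefSeq GRCm38.p6. Floors reflect counting error alone, as these libraries carry no molecular identifiers. The smallest chi-square per gene between replicates was 15.5, so none agreed within sampling noise.

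The members and the 11 pathway lists (136 genes) were chosen with earlier results of these data known, and some genes stand in several lists. Named genes are the members, up to 4 called genes of each list with the smallest p-values or else the 2 with the smallest p-values, and the 3 nearest patterns for the called member with the largest change and for the member with the highest level, by log2 CPM with a prior count of 2. The fit was repeated with RLE or upper-quartile factors, no low-count filter, a filter of at least 1 CPM in every library of a genotype, the replicate number as a block, and each library left out, and with DESeq2 1.42.0 and limma-voom (limma 3.58.1). It was also tested on simulated data. One marker list is not reported here.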

Additional observations from a re-analysis of the deposited data

How the results depend on the processing

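Of 12 alternatives, RLE and upper-quartile factors, DESeq2, limma-voom, no low-count filter and the stricter filter gave the same numbers of called members, 1 higher and 3 lower. All genes called numbered 1855, and 1079 with no low-count filter, which tested 28583 genes. Leaving out 1 library gave 277 to 1431 called genes, 0 to 1 members higher and 0 to 3 lower; a lone Runx3 +/+ library was assumed to vary like the other genotype. The replicate numbers share no stated animal, litter or day. Deviations of same-numbered libraries had correlations of -0.05 and 0.00 across genes. The deviations of the 2 Runx3 +/+ libraries mirror each other, and no pair with Runx3 +/WRPW library 3 was checked, so these values cannot decide on pairing. With the number as a replicate block, edgeR called 754 genes, with 1 member higher and 2 lower. Jund was the one lost (adjusted p = 0.0501, log2 fold change -0.86). Number 3 occurs in Runx3 +/WRPW alone, so that library adds nothing to the genotype comparison under the block, and fewer degrees of freedom remain. Calls lost there do not reflect the shared numbers alone. Under the block, 0 of the 17 further bZIP factors were called (4 at an unadjusted p under 0.05), and Egr1 was not.

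Signs turned in members that did not pass. Leaving out 1 library gave log2 fold changes of -0.19 to 0.21 for Fos (-0.02 without Runx3 +/WRPW library 1 and -0.19 without Runx3 +/+ library 1), -0.04 to 0.29 for Bach1 (-0.041 without Runx3 +/+ library 1) and -1.49 to 1.47 for Maf (-1.49 without Runx3 +/WRPW library 2 and -0.38 without Runx3 +/+ library 1). Maf was at -0.62 in limma-voom and had no value under the stricter filter. The cause was not tested. Length by RefSeq span, chosen after seeing the data, gave a Junb to Jund ratio of 1.90 in Runx3 +/WRPW and 0.596 in Runx3 +/+. The 2 Runx3 +/+ libraries limit the precision of every comparison.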

Other observations

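Some genes of the pathway lists varied widely among the Runx3 +/WRPW libraries; they were chosen after their values were seen and are given without explanation. Hmox1, the heme oxygenase gene and a classic target of Bach1, was at 8.34 and 8.88 CPM in Runx3 +/WRPW libraries 1 and 3 but at 0.125 CPM in library 2, against 0.420 and 0.360 CPM in Runx3 +/+ (log2 fold change 3.89 ± 1.46, SE; edgeR adjusted p = 0.137). It passed the test without Runx3 +/WRPW library 2. Nfil3, a bZIP repressor gene, was at 9.22 CPM in Runx3 +/WRPW library 2 and at 1.01 and 0.966 CPM in libraries 1 and 3, against 1.40 and 1.72 CPM in Runx3 +/+. Cd44, the hyaluronan receptor of memory T cells, was at 45.9, 87.2 and 35.9 CPM in Runx3 +/WRPW and at 22.8 and 18.3 CPM in Runx3 +/+ (log2 fold change 1.45 ± 0.39, SE; edgeR adjusted p = 0.0616). Cd44 was called in DESeq2 and, in edgeR, without Runx3 +/WRPW library 2 or library 3. Cebpb, a bZIP factor of another branch, was at 3.63, 8.97 and 5.75 CPM in Runx3 +/WRPW and at 2.29 and 1.16 CPM in Runx3 +/+ (log2 fold change 1.82 ± 0.50, SE; edgeR adjusted p = 0.0638).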
